A study of Mus musculus and Rattus norvegicus with 85 samples.

Results

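The lungs of 10 female mice, out of 85 mouse and rat lungs in the series, are described here: 5 mice that inhaled 13 ppm chloroprene for 15 exposure days, and 5 that inhaled 0.3 ppm for as long. They were chosen by species and by the concentration and time in the sample titles, with no measured value. All were B6C3F1/Crl mice, a hybrid strain, 10 weeks old at the start and exposed in air by whole-body inhalation for 6 hours a day on 5 days a week. RNA of the right lung lobes of each mouse was hybridised to an Affymetrix mouse genome array, and every value below is a log2 signal or a difference of log2 signals. No 15-day mice at 0 ppm were analysed here, so a response already present at 0.3 ppm is not part of these differences. The other mouse groups, with 5 mice each, inhaled 2 or 90 ppm for 15 days, or were killed after 5 days at 1 of the same 4 concentrations or in air alone (0 ppm).

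Chloroprene is the chlorinated diene from which neoprene rubber is made. Cytochromes P450, CYP2E1 among them, oxidise it to reactive epoxides, which glutathione transferases and epoxide hydrolases clear. In mouse airways the club cells, secretory cells of the bronchioles, are rich in P450s. Electrophiles react with cysteines of KEAP1, the protein that otherwise sends the transcription factor NRF2 to degradation. NRF2 then pairs with small MAF proteins on antioxidant response elements and turns on genes for glutathione synthesis, quinone and carbonyl reduction, thioredoxin recycling, NADPH supply and efflux.

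Some mice stand apart by their labels. For 9 of the 15-day mice a duration field says 5 days where the title and treatment text say 15, and the titles were followed. In this comparison these are mouse 157 at 13 ppm and mice 126, 127 and 128 at 0.3 ppm, and the titles of mice 126 and 127 also carry a letter after the animal number. The class of the labels was also set as a block in the fit of all 45 mouse arrays. Of 13796 genes, 1891 differed there for the 6 lettered mice and 631 for the 4 unlettered mice with a conflicting field. RNA integrity numbers averaged 9.5 ± 0.07 at 13 ppm and 9.4 ± 0.12 at 0.3 ppm (SD, n = 5 each; exact two-sided permutation p = 0.29, 0.59 adjusted over 4 quality measures). The difference between 3' and 5' control probe sets was 0.18 to 0.22 at 13 ppm, and at 0.3 ppm 0.026 to 0.038 in the lettered mice 126 and 127 and 0.24 to 0.26 in the other 3 (exact permutation p = 0.44 between the groups of 5). For the Gapdh probe sets it was -0.10 to 0.06 at 13 ppm, and -0.21 in both lettered mice and -0.10 to 0.09 in the others at 0.3 ppm (exact permutation p = 0.31). The part of this in the results was not tested beyond fits without these mice, with the label block or with a quality covariate. With the 3' minus 5' difference as a covariate 43 genes were higher at 13 than at 0.3 ppm. The count was 40 with the RNA integrity number, on the arrays that had one, and 44 with no covariate. Lung markers were present in both groups and none passed the test: the surfactant gene Sftpc, close to the highest value on the arrays (15.3), which limits any difference that could be seen, averaged 15.24 at 13 ppm and 15.25 at 0.3 ppm, the alveolar type 1 marker Ager 15.03 at 13 ppm and 14.99 at 0.3 ppm, and the endothelial marker Pecam1 12.48 at 13 ppm and 12.43 at 0.3 ppm. Each array is 1 mouse, and the labels do not say whether a group's exposure was run more than once, so p-values measure the spread between mice.

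After 15 days the lungs at 13 ppm differed from those at 0.3 ppm mainly by higher levels of genes for electrophile detoxification. Of 13796 genes, 44 were higher (0.319%) and 1 was lower (0.00725%) at an adjusted p under 0.05 in the limma fit. The rises ran from 0.25 to 1.80 with a median of 0.65; 27 were at least 1.5-fold and 10 of those at least 2-fold. Over all genes the median difference was -0.01, 45.5% of the differences were above 0, and 801 genes (5.8%) had an unadjusted p under 0.05. For 40 of the 44 rises all 5 mice at 13 ppm lay above all 5 at 0.3 ppm, an arrangement that 0.725% of all genes showed; Atp2b2, Cpox, Abcc1 and Abcc3 overlapped. Of the 44 rises 32 are in the lists of detoxification genes, 20 of them in the list of NRF2 targets. The lists were written with earlier results of these data known, so this membership is a description and no separate support. Without the mice whose duration field conflicts (4 mice at 13 ppm and 2 at 0.3 ppm left) 32 of the 44 passed, without the lettered mice (5 and 3 left) 32 passed, and with the label class as a block, an alternative chosen after seeing the data, 36 passed. All 44 differences were above 0 in each of these 3 fits. The 44 genes were chosen as higher on these same arrays, so their sign there is no separate support. In the block fit 7 of the 44 differed for the lettered mice, all lower, from -0.41 for Reep6 to -0.21 for Slc48a1. For the unlettered mice with a conflicting field 0 of the 44 differed. In this comparison the lettered mice are all at 0.3 ppm, and their part in these rises was not tested further.

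**Figure D1:**
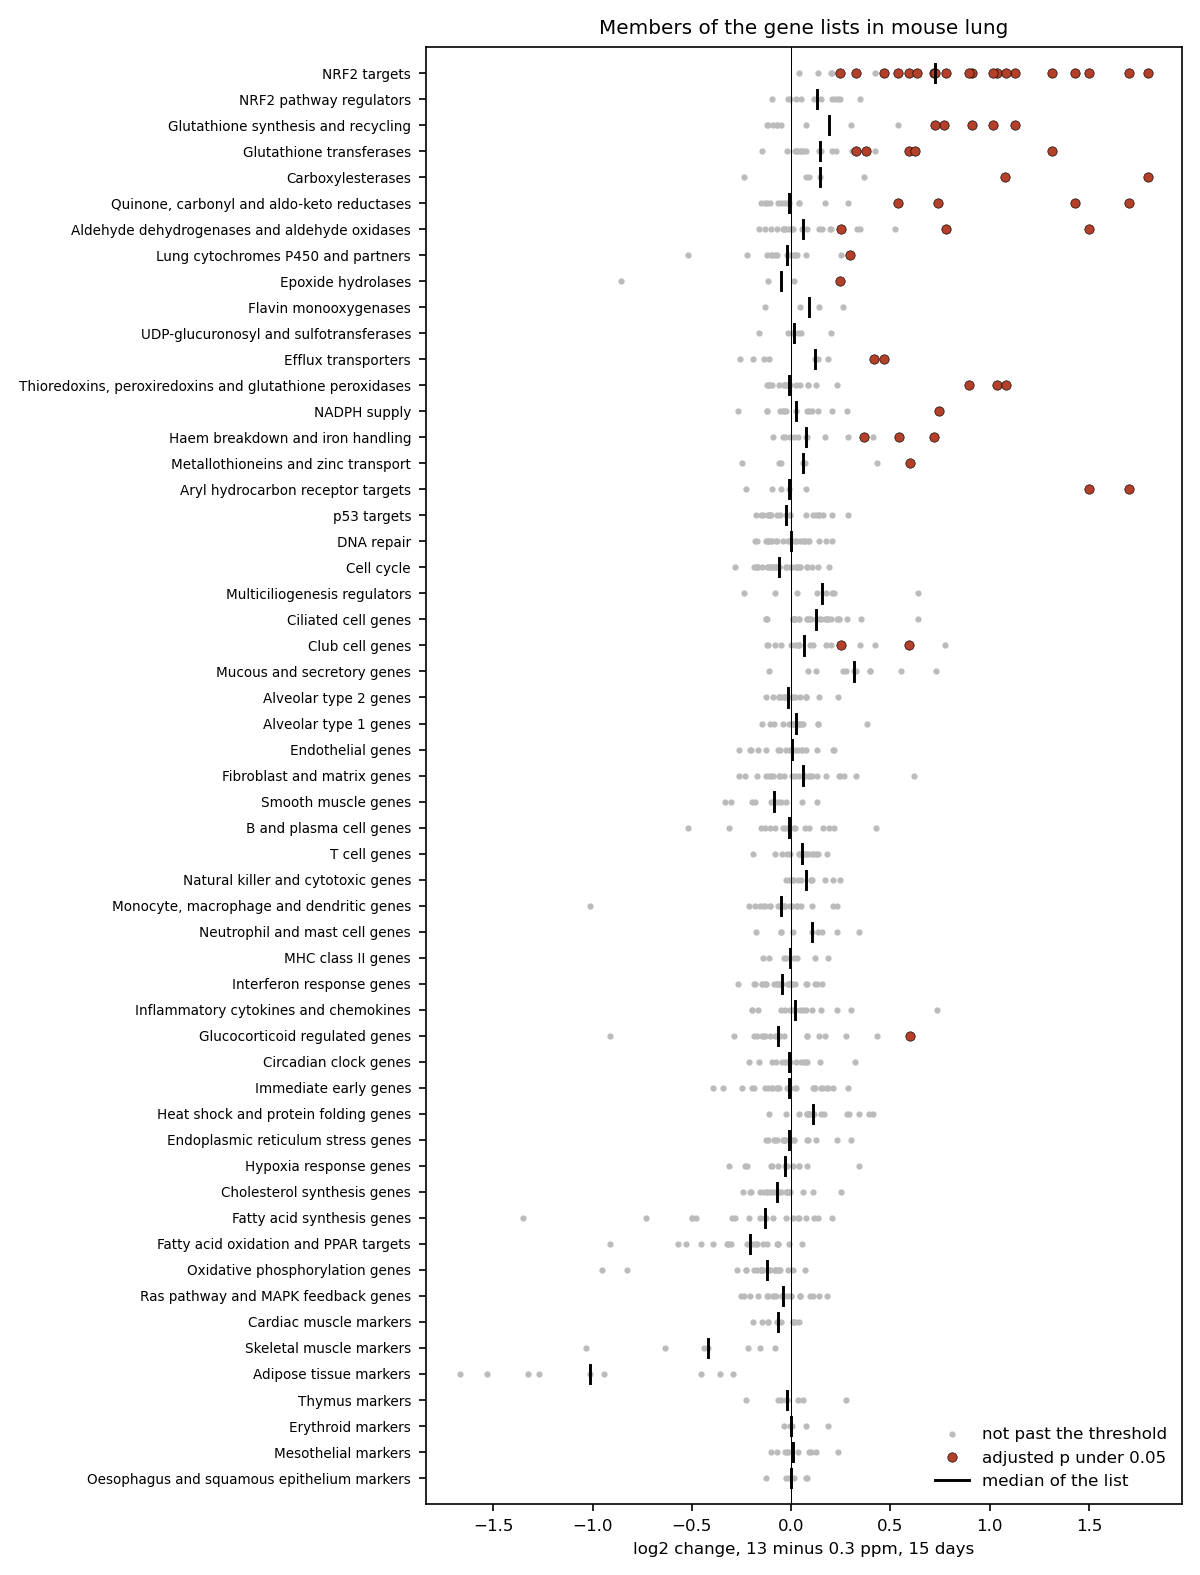
Log2 difference between 13 and 0.3 ppm after 15 days for each measured member of the gene lists, one list per line, with genes past an adjusted p of 0.05 in red and the list median as a black bar. Red points stand in 16 of the 55 lists, led by the NRF2 targets with 20 of 26 members.

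The NRF2 targets rose together. Of 26 measured, 20 rose, none fell and all 26 differences were above 0, with a median of 0.72 beside -0.01 over all genes. The 6 that did not pass were Gsta3 at 0.42, Pir at 0.33, Me1 at 0.21, Ugdh at 0.20, Abcc4 at 0.14 and Cbr2 at 0.04. Nqo1, the quinone reductase often used to read NRF2 activity, had 9.33, 9.32, 9.32, 9.14 and 9.28 at 13 ppm, against 7.15, 7.66, 7.69, 8.14 and 7.23 at 0.3 ppm. The 13 ppm mice lay close together, and among the 0.3 ppm mice mouse 128 was the highest. Nqo1 was 3.25-fold higher (1.70 ± 0.13, SE of the limma fit, adjusted p = 7.2e-12). Without the mice with a conflicting field 16 of the 26 targets rose, and without the lettered mice 17. Osgin1, a target named after its values were seen, rose by 0.63 ± 0.13 and did not pass without the mice with a conflicting field (0.46), without the lettered mice (0.41) or with the label block (0.49).

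The regulators of the pathway gave no call: of 12 measured, none passed, with a median of 0.13. Nfe2l2, which encodes NRF2, averaged 12.03 ± 0.26 at 13 ppm and 11.88 ± 0.17 at 0.3 ppm (0.15 ± 0.14, adjusted p = 0.93). Keap1 averaged 10.48 ± 0.17 at 13 ppm and 10.26 ± 0.14 at 0.3 ppm (0.22 ± 0.10, adjusted p = 0.84).

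Promoters follow for those of the 15 largest rises whose RefSeq promoter (build GRCm38.p6, 250 bases before to 50 after the start site) holds the core of the antioxidant response element, the sequence through which NRF2 acts. The core searched was TGACNNNGC on both strands, which reads GCNNNGTCA from the other strand, and capitals mark it.
Gclm: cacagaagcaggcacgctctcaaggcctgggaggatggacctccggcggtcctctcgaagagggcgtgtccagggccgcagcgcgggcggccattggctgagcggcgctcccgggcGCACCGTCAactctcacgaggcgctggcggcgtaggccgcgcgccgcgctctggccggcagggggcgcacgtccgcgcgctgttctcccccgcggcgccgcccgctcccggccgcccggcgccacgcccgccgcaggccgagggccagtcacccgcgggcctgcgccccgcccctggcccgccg
Srxn1: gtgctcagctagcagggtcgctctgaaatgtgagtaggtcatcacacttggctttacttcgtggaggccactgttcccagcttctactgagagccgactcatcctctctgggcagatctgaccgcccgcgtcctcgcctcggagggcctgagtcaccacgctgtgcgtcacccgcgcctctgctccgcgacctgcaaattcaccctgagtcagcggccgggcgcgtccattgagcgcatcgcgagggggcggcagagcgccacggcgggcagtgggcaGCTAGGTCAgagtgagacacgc
Acox2: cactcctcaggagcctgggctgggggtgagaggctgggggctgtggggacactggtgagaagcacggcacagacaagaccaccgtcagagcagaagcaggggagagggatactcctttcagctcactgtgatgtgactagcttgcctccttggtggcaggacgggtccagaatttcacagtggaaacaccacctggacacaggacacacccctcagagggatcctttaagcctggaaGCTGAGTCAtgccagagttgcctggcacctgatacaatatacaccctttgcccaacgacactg
Txnrd1: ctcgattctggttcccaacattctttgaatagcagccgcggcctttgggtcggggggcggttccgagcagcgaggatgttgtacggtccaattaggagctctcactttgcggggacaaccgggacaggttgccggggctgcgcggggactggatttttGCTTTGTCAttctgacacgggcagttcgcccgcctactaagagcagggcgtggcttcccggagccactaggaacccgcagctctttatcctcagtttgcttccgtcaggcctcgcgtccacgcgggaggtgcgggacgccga
The Gclm promoter is chr3:122245307-122245606 on the plus strand, with the core at -134 to -126 from the start site. The Srxn1 promoter is chr2:152105274-152105573 on the plus strand, with the core at 29 to 37. The Acox2 promoter is chr14:8258970-8259269 on the minus strand, with the core at -13 to -5, where the letters also hold TGAGTCA, the AP-1 site. The Srxn1 promoter holds TGAGTCA more than once, in unmarked letters upstream of its core. In 1 of these places it reads TGAGTCAGC, which differs from the core searched by 1 letter, G in place of C, and was missed for that reason. A search that allows either letter was not run, and which of these sites acts in Srxn1 was not tested. The Txnrd1 promoter is chr10:82858956-82859255 on the plus strand, 1 of 3 listed for the gene, with the core at -92 to -84. All 4 cores lie on the strand opposite to the gene. The core stands in 4 of the 12 genes with an entry among the 15 largest rises and in 7 of the 32 rises with an entry (21.9%), beside 16.8% of 11084 tested genes and 14.0% of all 27025 genes of the table. A match of letters is a description and shows no binding.

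Glutathione synthesis and recycling rose at several steps, with 5 of 14 measured genes higher, none lower and a median of 0.19. Gclm, the modifier subunit of the rate-limiting glutamate-cysteine ligase, had 11.39, 11.55, 11.44, 11.20 and 11.17 at 13 ppm, against 10.30, 10.32, 9.98, 10.24 and 10.28 at 0.3 ppm. The groups lay well apart and mouse 128 was not high among the 0.3 ppm mice. Gclm was 2.18-fold higher (1.13 ± 0.09, adjusted p = 5.0e-11). The catalytic subunit Gclc had 12.43, 12.23, 12.17, 12.01 and 12.49 at 13 ppm, against 11.41, 11.33, 11.20, 11.43 and 11.39 at 0.3 ppm, again without overlap (0.91 ± 0.13, adjusted p = 2.4e-05). Without the mice with a conflicting field Gclc was at 0.82 and did not pass (adjusted p = 0.058). Slc7a11, which imports the cystine for glutathione, had 7.24, 6.81, 6.76, 6.06 and 6.78 at 13 ppm, against 5.71, 5.76, 5.58, 5.87 and 5.64 at 0.3 ppm. It exceeded the filter on low values (6.67) on 4 arrays at 13 ppm and on 0 at 0.3 ppm, so its rise of 1.02 ± 0.15 starts at the low end of the array. Of all 45 mouse arrays 8 exceeded the filter, where 5 were needed, so Slc7a11 was tested only through its high 13 ppm arrays. Its place among the rises is therefore no separate support. After 5 days it lay below the filter on every array at 13 and 0.3 ppm. Gss, which completes glutathione, rose by 0.77 ± 0.08, and Gsr, which reduces it after oxidation, by 0.73 ± 0.11. With the label block Gsr was at 0.60 and still passed.

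**Figure D2:**
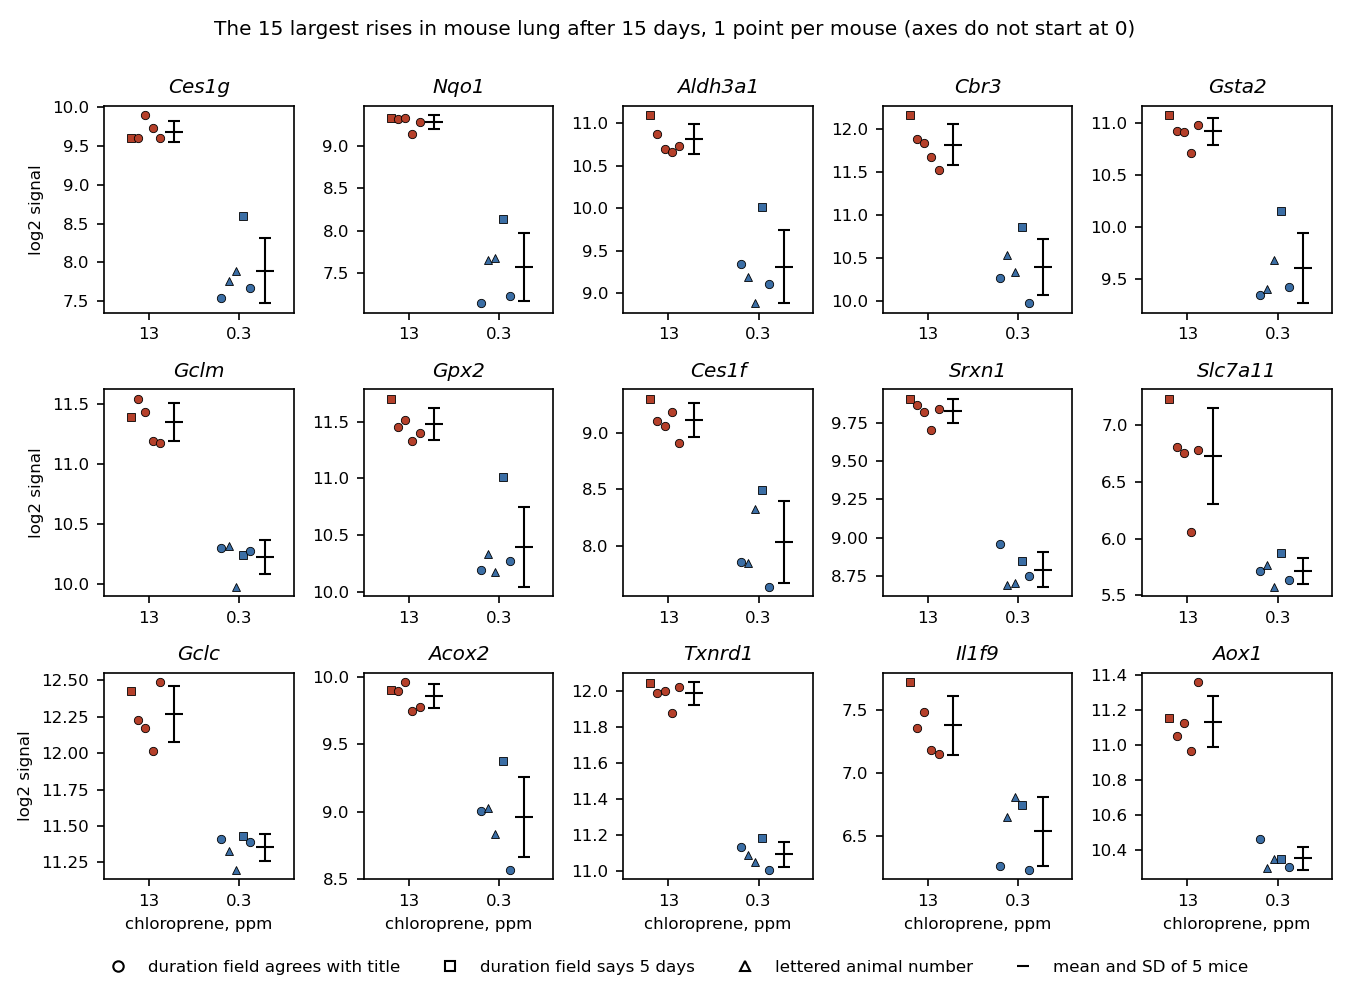
Log2 signal of the 15 genes with the largest rises in each mouse at 13 ppm (left) and 0.3 ppm (right) after 15 days, with the mean and SD of 5 mice; squares mark mice whose duration field says 5 days and triangles those with a lettered number. The groups do not overlap in any panel, and the 0.3 ppm square, mouse 128, is the highest of its group in 11 of the 15.

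Thioredoxin and peroxidase genes gave 3 rises among 20 measured. Txnrd1, which reduces thioredoxin, had 12.04, 11.99, 12.000, 11.88 and 12.02 at 13 ppm, against 11.13, 11.09, 11.05, 11.18 and 11.004 at 0.3 ppm. Both groups were tight, and the rise was 0.89 ± 0.08 (adjusted p = 5.3e-11). Srxn1, which repairs over-oxidised peroxiredoxins, had 9.91, 9.87, 9.82, 9.70 and 9.84 at 13 ppm, against 8.96, 8.69, 8.71, 8.85 and 8.75 at 0.3 ppm (1.04 ± 0.11, adjusted p = 1.4e-08), and of its 3 other probe sets 2 passed as well (0.97 and 0.76) while the third, the dimmest, was at -0.022. Gpx2, the glutathione peroxidase of epithelia, had 11.70, 11.45, 11.52, 11.33 and 11.40 at 13 ppm, against 10.19, 10.34, 10.18, 11.02 and 10.27 at 0.3 ppm. Mouse 128 lay far above the other 0.3 ppm mice and below every 13 ppm mouse (1.08 ± 0.12, adjusted p = 2.5e-08). Pgd, of the pentose phosphate pathway that makes NADPH for these reductases, rose by 0.74 ± 0.07 (adjusted p = 1.2e-09), the only call among 15 NADPH genes; Idh1 was at 0.28 ± 0.08 (adjusted p = 0.18).

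Carboxylesterases, which split esters and amides, held the largest rise. Ces1g had 9.60, 9.60, 9.90, 9.73 and 9.60 at 13 ppm, against 7.54, 7.76, 7.88, 8.60 and 7.68 at 0.3 ppm. All mice at 13 ppm lay above mouse 128, the highest at 0.3 ppm, and Ces1g was 3.47-fold higher (1.80 ± 0.18, adjusted p = 3.4e-09). Ces1f had 9.30, 9.10, 9.06, 9.18 and 8.90 at 13 ppm, against 7.86, 7.85, 8.33, 8.49 and 7.64 at 0.3 ppm (1.08 ± 0.14, adjusted p = 4.2e-06). The other 5 of 7 measured members did not pass, among them Ces1e at 0.37 ± 0.11 and Ces2b at -0.24 ± 0.18. Members of the Ces1 cluster are alike in sequence, and a probe set may take up signal of a relative.

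Some enzymes for carbonyl compounds and aldehydes rose: 4 of 17 reductases, with a list median of -0.008 and 8 of 17 above 0, and 3 of 24 aldehyde dehydrogenases and oxidases, with a list median of 0.06. Aldh3a1, which oxidises aromatic and medium-chain aldehydes, had 11.09, 10.87, 10.70, 10.66 and 10.73 at 13 ppm, against 9.34, 9.19, 8.89, 10.02 and 9.11 at 0.3 ppm. It was 2.83-fold higher (1.501 ± 0.17, adjusted p = 1.6e-07). Cbr3, a carbonyl reductase, had 12.16, 11.89, 11.84, 11.68 and 11.53 at 13 ppm, against 10.27, 10.53, 10.33, 10.86 and 9.97 at 0.3 ppm. It was 2.69-fold higher (1.43 ± 0.12, adjusted p = 5.0e-11), and mouse 128 was the highest 0.3 ppm mouse for both genes. Cbr1 rose by 0.54 ± 0.07, the aldo-keto reductase Akr1b8 by 0.74 ± 0.12 and the aldehyde oxidase Aox1 by 0.78 ± 0.12. Aldh1a1, a retinaldehyde dehydrogenase, rose by 0.25 ± 0.06 and did not pass without the mice with a conflicting field (0.22), without the lettered mice (0.21) or with the label block (0.24). Nqo1 and Aldh3a1 are also the 2 calls among 7 measured targets of the aryl hydrocarbon receptor; Cyp1b1 was at 0.07 ± 0.11 and Tiparp at -0.23 ± 0.21.

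Glutathione transferases, which join glutathione to epoxides and other electrophiles, rose for 5 of 20 measured members, and 18 differences were above 0 (median 0.15). Gsta2 had 11.07, 10.92, 10.91, 10.72 and 10.98 at 13 ppm, against 9.35, 9.41, 9.69, 10.16 and 9.42 at 0.3 ppm. It was 2.49-fold higher (1.31 ± 0.15, adjusted p = 8.9e-08). Gsto1 rose by 0.62 ± 0.10, Gsta4, which handles lipid peroxidation aldehydes, by 0.59 ± 0.10, Gstm3 by 0.38 ± 0.07 and Gstm1 by 0.32 ± 0.05. Gsta3 was at 0.42 ± 0.13 (adjusted p = 0.42), with 12.11 to 12.47 at 13 ppm, against 12.37 in mouse 128 and 11.58 to 11.86 in the other mice at 0.3 ppm, and passed at 0.55 without that mouse. Alpha and mu class members share sequence, so their probe sets may not tell them apart.

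Among epoxide hydrolases and P450s, 1 of 4 and 1 of 16 measured genes rose. Ephx1, microsomal epoxide hydrolase, had 12.87, 12.86, 12.85, 12.83 and 12.78 at 13 ppm, against 12.53, 12.57, 12.50, 12.78 and 12.59 at 0.3 ppm. The rise was 0.25 ± 0.05 (adjusted p = 0.019), with mouse 128 next to the lowest 13 ppm mouse, and it did not pass without the mice with a conflicting field (0.27), without the lettered mice (0.21) or with the label block (0.22), which left the hydrolases with no call. Cyp2e1 had 10.05, 9.36, 9.29, 9.76 and 9.03 at 13 ppm, against 9.49, 10.004, 10.97, 10.38 and 9.25 at 0.3 ppm. The groups overlapped (-0.52 ± 0.29, adjusted p = 0.88), and the difference was -0.01 without the mice with a conflicting field. Cyp2f2, the P450 typical of club cells, averaged 14.90 ± 0.04 at 13 ppm and 14.88 ± 0.04 at 0.3 ppm (0.02 ± 0.04), close to the highest value on the arrays (15.3), which limits any rise that could be seen. The call among P450 genes and partners was Cyb5a, the cytochrome b5 that passes electrons to P450s (0.30 ± 0.06); it did not pass without the mice with a conflicting field or without the lettered mice (adjusted p = 0.051 and 0.13). Soluble epoxide hydrolase, Ephx2, had 7.32 to 8.10 at 13 ppm, against 10.63 in mouse 127 and 7.65 to 8.22 in the other mice at 0.3 ppm (-0.85 ± 0.32, adjusted p = 0.75). Of 9 efflux transporters Abcc1 (0.47 ± 0.08) and Abcc3 (0.42 ± 0.09), which export glutathione and glucuronide conjugates, rose. Abcc3 did not pass without the mice with a conflicting field or without the lettered mice (adjusted p = 0.13 and 0.34).

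Haem and metal genes gave 4 rises. Hmox1, haem oxygenase, had 10.35, 10.48, 10.39, 10.63 and 10.56 at 13 ppm, against 9.65, 9.87, 9.71, 9.95 and 9.62 at 0.3 ppm. The groups did not overlap (0.72 ± 0.15, adjusted p = 0.0096), but Hmox1 did not pass without the mice with a conflicting field (0.88) or without the lettered mice (0.74). Blvrb, which reduces biliverdin, rose by 0.54 ± 0.09 and the haem transporter Slc48a1 by 0.37 ± 0.09, which made 3 of 14 genes of haem and iron. Slc48a1 did not pass without the mice with a conflicting field (0.28), without the lettered mice (0.28) or with the label block (0.29), and Blvrb was the 1 call of this list in the first 2 of these fits. The metallothionein Mt1 had 12.15, 12.21, 12.38, 12.40 and 12.35 at 13 ppm, against 11.42, 11.31, 12.11, 11.96 and 11.71 at 0.3 ppm (0.60 ± 0.14, adjusted p = 0.032), and a dimmer probe set of Mt1 was at -0.053. Mt1 was the only call among 7 metallothionein and zinc genes and among 21 glucocorticoid regulated genes, and lost its call when any of mice 158, 159, 160, 161, 125, 126 or 129 was left out (0.50 to 0.62). With the label block Mt1 was at 0.53 (adjusted p = 0.19), and neither list held a rise. Mt1 passed without the mice with a conflicting field (0.77, adjusted p = 0.0055) and without the lettered mice (0.60, adjusted p = 0.023). Each of these lists held 2 rises in the first of these fits and 1 in the second. Mt2 had 10.77 to 11.04 at 13 ppm and 9.84 to 11.14 at 0.3 ppm (0.43 ± 0.15, adjusted p = 0.66).

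The 12 rises outside the lists were led by Acox2, a peroxisomal oxidase of branched-chain acids and bile acid intermediates, with 9.90, 9.90, 9.96, 9.75 and 9.78 at 13 ppm, against 9.004, 9.03, 8.83, 9.37 and 8.57 at 0.3 ppm (0.90 ± 0.11, adjusted p = 1.2e-06). Il1f9, the epithelial cytokine interleukin-36 gamma, had 7.72, 7.36, 7.48, 7.19 and 7.15 at 13 ppm, against 6.27, 6.65, 6.81, 6.75 and 6.23 at 0.3 ppm (0.84 ± 0.14, adjusted p = 1.5e-04). Both genes separated the groups, Il1f9 near the low end, with 2 arrays at 0.3 ppm above the filter. The rises named next, like Gsr and Gstm3 above, were chosen after their values were seen. The nucleotide hydrolases Entpd5 and Entpd3 rose by 0.66 ± 0.11 and 0.50 ± 0.09, the porphyrin transporter Abcb6 by 0.65 ± 0.11, the morphogen Shh by 0.54 ± 0.09 and the ubiquitin hydrolase Uchl1 by 0.54 ± 0.11. The calcium pump Atp2b2 rose by 0.54 ± 0.12, the NF-kappa-B regulator Ikbkg by 0.52 ± 0.07, Reep6 by 0.66 ± 0.14 and 1810010H24Rik by 0.45 ± 0.11. Other probe sets of Ikbkg were divided: those at 0.43 and 0.54 passed, and those at 0.27, 0.27 and 0.37 did not. Reep6 and 1810010H24Rik did not pass without the mice with a conflicting field (0.51 and 0.38), without the lettered mice (0.42 and 0.32) or with the label block (0.50 and 0.36). Shh did not pass without the mice with a conflicting field (0.39, adjusted p = 0.30), nor Atp2b2 without the lettered mice (0.48, adjusted p = 0.37). Cpox, of haem synthesis, had 8.46, 8.74, 8.65, 8.74 and 8.72 at 13 ppm, against 8.52, 8.005, 7.995, 7.85 and 8.50 at 0.3 ppm. It was low in mice 126, 127 and 128, the mice with a conflicting field, and its rise of 0.49 ± 0.12 (adjusted p = 0.048) was 0.20 without them and mouse 157.

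The single lower gene was Cep57l1, with 7.50, 7.50, 7.51, 7.31 and 7.36 at 13 ppm, against 7.50, 7.76, 7.74, 7.89 and 7.71 at 0.3 ppm. The groups overlapped through mouse 125, and the difference of -0.29 ± 0.07 (adjusted p = 0.042) did not pass without the mice with a conflicting field (-0.19).

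The lists of DNA damage, growth and inflammation held no call, although Il1f9 and Ikbkg above, which stand in none of them, rose. None passed of 21 p53 targets, 28 DNA repair genes and 30 cell cycle genes, with medians of -0.03, 0.00 and -0.06. Cdkn1a, the cell cycle inhibitor that p53 induces, averaged 10.76 ± 0.11 at 13 ppm and 10.62 ± 0.40 at 0.3 ppm (0.14 ± 0.17), and the proliferation marker Mki67 was at -0.09 ± 0.24. None passed of 17 cytokines and chemokines, 27 interferon response genes, 18 T cell genes or 18 B and plasma cell genes; the B cell marker Ms4a1 was at 0.02 ± 0.30. Of 18 club cell genes the detoxification enzymes Gsta4 and Aldh1a1 rose, while the secretoglobin Scgb1a1 averaged 15.20 at 13 ppm and 15.21 at 0.3 ppm, near the highest value on the arrays (15.3). Of 29 ciliated cell genes 26 were above 0, beside 45.5% of all genes, and none passed (median 0.12). Foxj1, the regulator of motile cilia, averaged 10.45 at 13 ppm and 9.81 at 0.3 ppm (0.64 ± 0.21, adjusted p = 0.56). In whole lung, fewer cells of a type and less RNA per cell cannot be told apart.

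Markers of other tissues differed between mice. The 9 adipose markers had a median difference of -1.01; 6 had an unadjusted p under 0.05 and none passed. Their mean signal ran over 7.89 to 9.03 at 13 ppm and 8.33 to 11.93 at 0.3 ppm, with 7 to 9 of the 9 above the filter in each mouse of both groups and mouse 127 the highest. Without the mice with a conflicting field the median was 0.01. The 7 skeletal muscle markers had 7.50 to 7.60 at 13 ppm, and at 0.3 ppm 9.05 in mouse 127 and 7.60 to 7.92 in the others. The 20 fatty acid oxidation genes had a median of -0.21, and 0.01 without those mice. The part of these tissues in the values of Ephx2, Cyp2e1 and the fatty acid genes was not tested.

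Mouse 128 had the highest level of the 0.3 ppm mice in 34 of the 44 rises. The mean over the 44 genes, which this comparison chose, was 10.59 to 10.76 at 13 ppm, and at 0.3 ppm 9.85 to 9.90 in 4 mice and 10.18 in mouse 128. Mice at 2 ppm had 10.27 to 10.39, so mouse 128 lay between the other 0.3 ppm mice and the 2 ppm mice. Without mouse 128, 62 genes were higher.

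**Figure D3:**
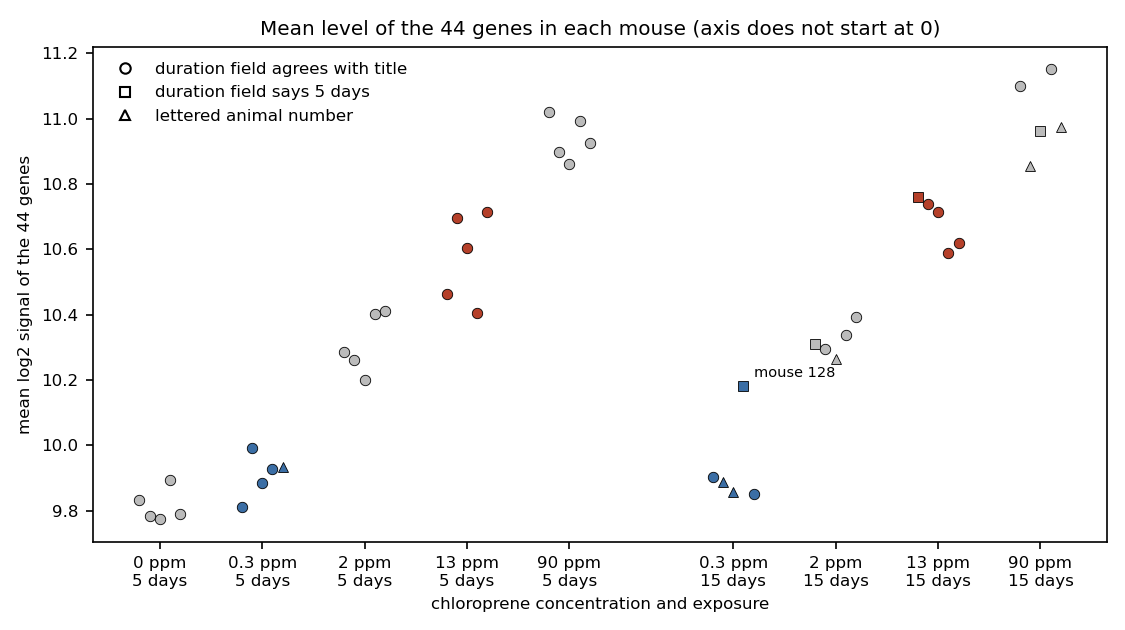
Mean log2 signal of the 44 genes higher at 13 than at 0.3 ppm after 15 days, one point per mouse, for each concentration and exposure time, with marker shapes for the class of the labels. After 15 days the 13 ppm mice lie at 10.59 to 10.76 and the 0.3 ppm mice at 9.85 to 10.18, with mouse 128 on top.

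Across concentrations after 15 days the levels at 13 ppm mostly stood between those at 2 and 90 ppm. These comparisons share arrays, and their values are set side by side as a description. For the 44 genes the median difference from the 0.3 ppm mice was 0.34 at 2 ppm, 0.65 at 13 ppm and 1.003 at 90 ppm. Nqo1 averaged 7.58 ± 0.40 at 0.3 ppm, 8.48 ± 0.18 at 2 ppm, 9.28 ± 0.08 at 13 ppm and 9.93 ± 0.18 at 90 ppm (SD, n = 5 each). Aldh3a1 averaged 9.31 ± 0.43 at 0.3 ppm, 9.67 ± 0.26 at 2 ppm, 10.81 ± 0.18 at 13 ppm and 11.97 ± 0.35 at 90 ppm, with its larger steps above 2 ppm. Slc7a11 averaged 5.71 ± 0.11 at 0.3 ppm, 5.97 ± 0.22 at 2 ppm, 6.73 ± 0.42 at 13 ppm and 6.75 ± 0.25 at 90 ppm, about level from 13 ppm on. Hmox1 averaged 9.76 ± 0.14 at 0.3 ppm, 10.59 ± 0.32 at 2 ppm, 10.48 ± 0.11 at 13 ppm and 10.73 ± 0.26 at 90 ppm, with most of its difference already at 2 ppm. Entpd3 averaged 7.22 ± 0.14 at 0.3 ppm, 7.37 ± 0.21 at 2 ppm, 7.72 ± 0.17 at 13 ppm and 7.25 ± 0.17 at 90 ppm, highest at 13 ppm. Mt1, of the glucocorticoid list, averaged 11.70 ± 0.34 at 0.3 ppm, 11.86 ± 0.22 at 2 ppm, 12.30 ± 0.11 at 13 ppm and 13.11 ± 0.31 at 90 ppm. Fkbp5, another gene of that list, averaged 9.85 ± 0.96 at 0.3 ppm, 9.60 ± 0.83 at 2 ppm, 9.81 ± 0.72 at 13 ppm and 12.21 ± 0.27 at 90 ppm, and Nr1d1, a clock repressor, averaged 10.93 ± 0.49 at 0.3 ppm, 11.19 ± 0.35 at 2 ppm, 11.25 ± 0.21 at 13 ppm and 9.99 ± 0.47 at 90 ppm. The 90 ppm means of Fkbp5 and Nr1d1 stood apart from the other 3, while Pdk4, also of the glucocorticoid list, averaged 9.41 ± 1.26 at 0.3 ppm, 8.58 ± 0.61 at 2 ppm, 8.50 ± 0.51 at 13 ppm and 9.43 ± 0.46 at 90 ppm. Between 13 and 0.3 ppm Fkbp5 was at -0.03 ± 0.42 and Nr1d1 at 0.32 ± 0.22; Zbtb16, which glucocorticoids induce, was at 0.28 ± 0.53.

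**Figure D4:**
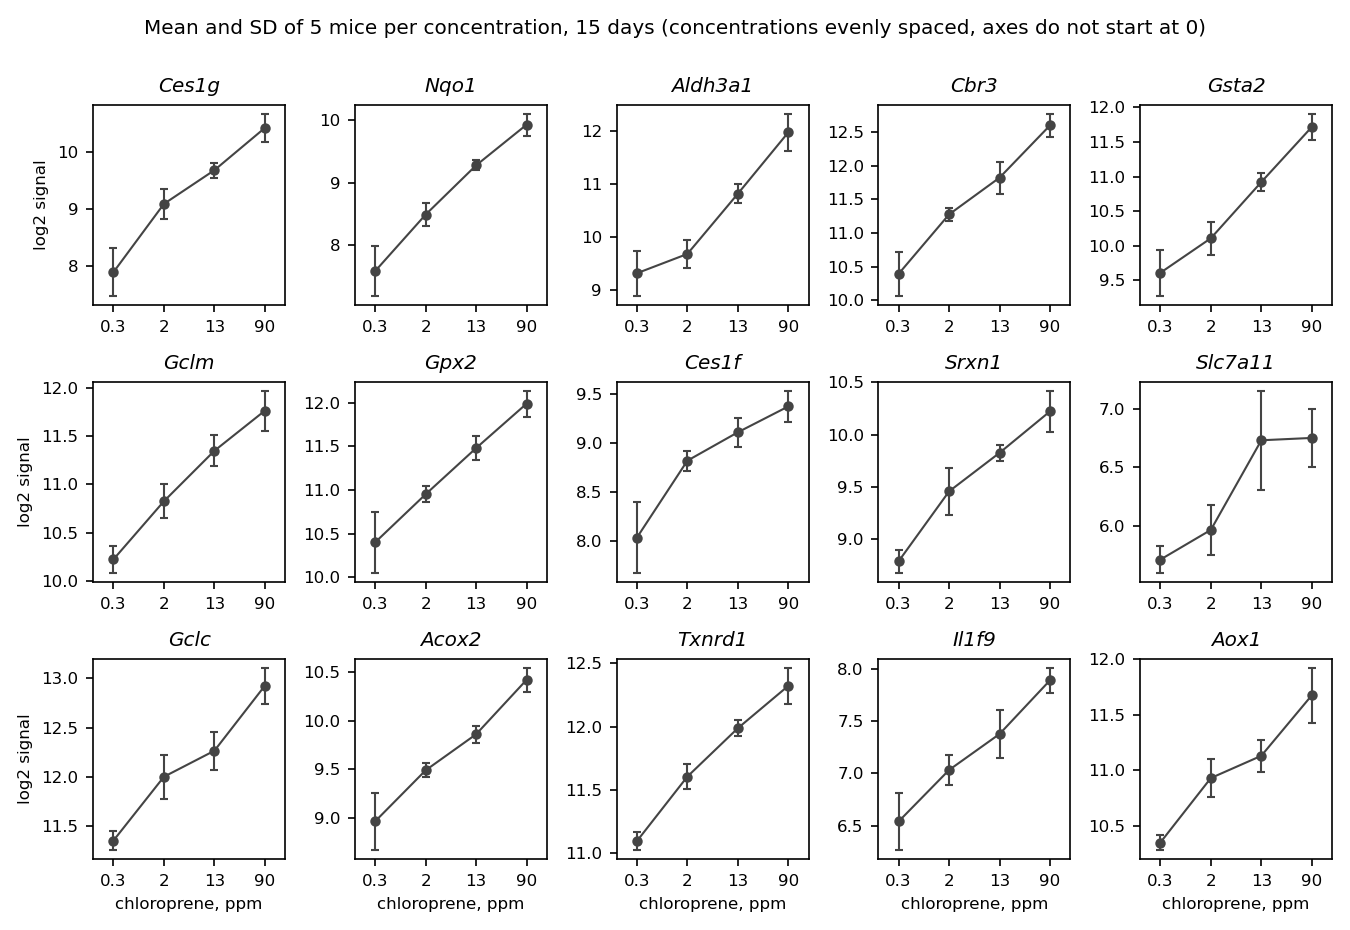
Mean log2 signal and SD of 5 mice at 0.3, 2, 13 and 90 ppm after 15 days for the 15 genes with the largest rises at 13 against 0.3 ppm. The means at 13 ppm lie above those at 2 ppm in every panel, and Slc7a11 has about the same mean at 13 and 90 ppm (6.73 and 6.75).

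Other mice exposed to the same concentrations for 5 days gave a separate measure of these genes. There 47 genes were higher at 13 than at 0.3 ppm (0.341%), and 30 of the 44 were among them, which is 68.2% of the 15-day rises and 63.8% of the 5-day rises. All 44 differences at 5 days were above 0, with a median of 0.56 beside -0.0008 over all genes. Nqo1 differed by 1.70 ± 0.13 after 15 days and 1.62 ± 0.13 after 5 days, Ces1g by 1.80 ± 0.18 after 15 days and 1.74 ± 0.18 after 5 days and Gclm by 1.13 ± 0.09 after 15 days and 0.90 ± 0.09 after 5 days. Hmox1, at 0.72 ± 0.15 after 15 days and 0.60 ± 0.15 after 5 days, was among the 14 that did not pass at 5 days (adjusted p = 0.069). No gene passed the test of the difference between the times in limma (0%), and 345 had an unadjusted p under 0.05. Over the 44 rises the difference, 15 days minus 5 days, ran from -0.25 for Gpx2 to 0.47 for Cpox, with a median of 0.08. Cpox, at 0.49 ± 0.12 after 15 days and 0.02 ± 0.12 after 5 days, was the only one of the 44 with an unadjusted p under 0.05 for it. Between 0.3 and 0 ppm after 5 days the 44 genes had a median difference of 0.08 and a range of -0.14 to 0.39, and none passed.

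**Figure D5:**
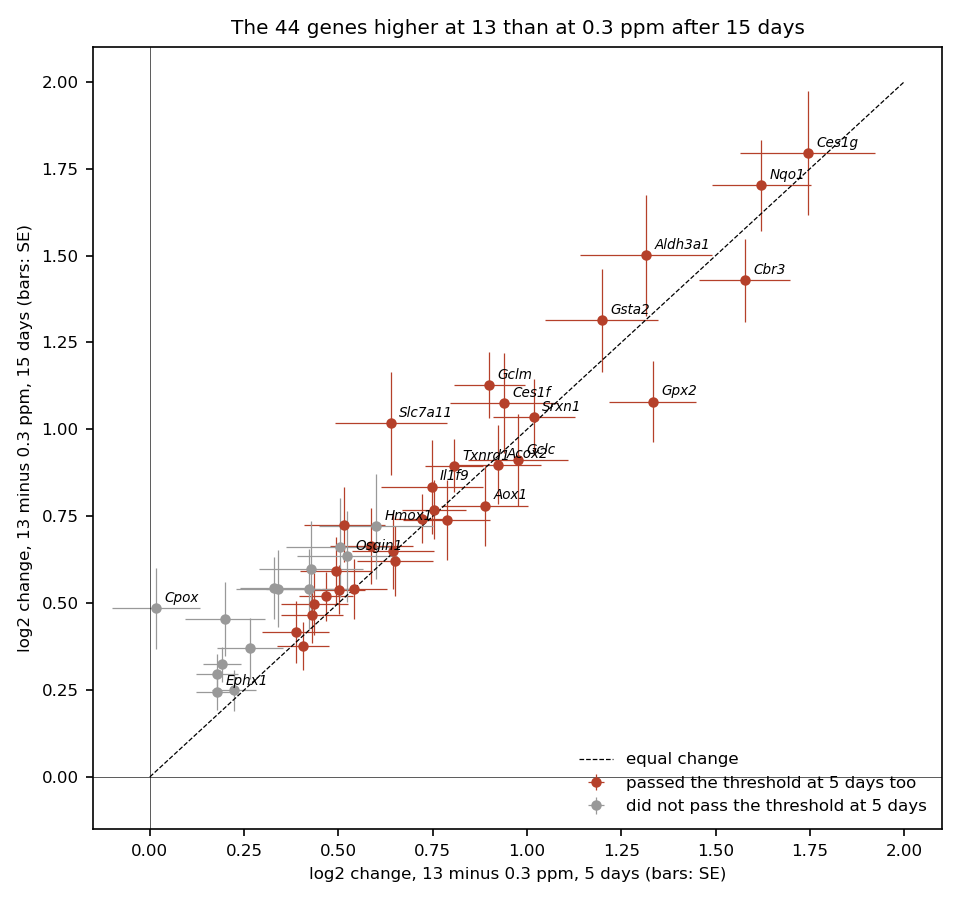
Log2 difference between 13 and 0.3 ppm after 15 days (vertical) against that after 5 days (horizontal) for the 44 genes higher after 15 days, with SE bars. All 44 points lie above 0 on both axes, and the 30 that passed at 5 days too are in red.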

How the data were processed

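The authors deposited 1 log2 signal per probe set and array; how they summarised and normalised it is not given in the sources used here. Values ran from 3.47 to 15.3 and array medians from 7.27 to 7.37. Per the labels, RNA was purified with Trizol and RNeasy. Of 45101 probe sets, 34958 had 1 gene symbol, 932 several and 9211 none. Of those with 1 symbol, 34754 were matched by Entrez number to a RefSeq table (GRCm38.p6), whose symbol was used. Probe sets with 1 symbol above the 40th percentile (6.67) on at least 5 arrays were kept, and the brightest stood for its gene, leaving 13796 genes.

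Groups follow the titles. A mean per group was fitted over 45 mouse arrays with limma 3.58.1 (R 4.3.3), and p-values were adjusted by the Benjamini-Hochberg method across the genes, with 0.05 as the threshold. The fit was tested on simulated data. Precision is limited by 5 arrays per group; the median SE was 0.10. Quality measures were compared by exact permutation. Promoters came from RefSeq.

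The comparison, gene lists and naming rule were chosen with earlier results of these data known. Named were the 15 largest rises and falls past the threshold, up to 4 genes of smallest p per list with a call, 20 genes whatever their result, and the 3 smallest p for the difference between the times. Pir, Ugdh, Abcc4, Cbr2, the lung markers and the other genes that passed are outside this rule and were named after their values were seen. Alternatives changed the filter, normalisation, probe set, covariates, arrays, moderation and mice.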

Additional observations from a re-analysis of the deposited data

Results flagged for a closer look

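In 11 of 166 groups of 5 mice tested, 1 mouse stood far from the other 4, and chance flags about 1 group in 20. At 0.3 ppm, mouse 128 was far above the rest for Gpx2 (11.02, the others 10.18 to 10.34), Gsta4 (12.27, the others 11.72 to 11.84), Blvrb (10.18, the others 9.89 to 9.96) and Ces1e (8.48, the others 7.74 to 7.85). Mouse 127 at 0.3 ppm was far above the rest for Ephx2 (10.63, the others 7.65 to 8.22) and below it for Gclm (9.98, the others 10.24 to 10.32). At 13 ppm, mouse 157 was above its group for Gsto1 (13.26) and below it for Gstm3 (8.65) and 1810010H24Rik (10.69). Mouse 160 was the lowest at 13 ppm for Nqo1 (9.14), and mouse 161 for Ces1e (8.08).

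For Plxdc2 the difference between 13 and 0.3 ppm was 0.11 ± 0.08 after 15 days and -0.29 ± 0.08 after 5 days; these lay 0.40 apart and did not pass (adjusted p = 1.00). Dlgap5, at -0.25 ± 0.08 after 15 days and 0.21 ± 0.08 after 5 days, and Sstr4, at 0.15 ± 0.09 after 15 days and -0.35 ± 0.09 after 5 days, had the other smallest p-values for the difference between the times and did not pass either.

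Outside the genes tested, 15 probe sets with several symbols or none passed the threshold when all probe sets were tested, and all 15 were higher at 13 ppm. A probe set shared by Gsta1, Gsta2 and Gm3776 had the largest difference (1.81 ± 0.17). The 3 probe sets shared by the Ugt1a glucuronosyltransferases had 0.64 ± 0.09, 0.54 ± 0.06 and 0.53 ± 0.09. Probe sets shared with pseudogenes had 0.48 ± 0.06 for Esd, which hydrolyses S-formylglutathione, and 0.27 ± 0.05 and 0.18 ± 0.04 for Ftl1, the ferritin light chain.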

How the results depend on the processing

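The 44 higher genes became 76 with each probe set tested alone and 26 with the 10 arrays alone; leaving out 1 mouse gave 35 (mouse 127, 158 or 159) to 62 (mouse 128). The 1 lower gene became 0 with the RNA integrity covariate, all probe sets, the 15-day arrays or the 10 arrays alone, the label block, the 60th percentile, no filter, quantile normalisation, trended robust moderation, and without the conflicting or the lettered mice; leaving out 1 mouse gave 0 to 2. At 5 days the 1 lower gene became 2 with no filter, the mean of probe sets or trended robust moderation, 3 with quantile normalisation or the label block, 6 with the RNA integrity covariate, 5 without conflicting mice and 0 with 5-day arrays alone; leaving out 1 mouse gave 0 to 3. The causes were not tested. The NRF2 targets called higher ran from 15 to 22, and the count of 0 for the difference between the times stayed 0 in each alternative run. Of the 44 rises 33 passed whichever mouse was left out, and 20 in all 22 alternatives. Some of the 44 were not tested with the filter at the 60th percentile, and for the count of 20 they were taken as not passing.

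Another probe set gave -0.053 for Mt1 and one gave -0.022 for Srxn1, the 2 below 0 among 33 other kept probe sets of the 44 rises. Of these 33, 21 passed when each probe set was tested alone. The other kept probe set of Shh, Cpox, Atp2b2, Gstm3 and Slc48a1 did not pass (0.26 to 0.37). For Ikbkg, other kept probe sets at 0.27, 0.27 and 0.37 did not pass, while those at 0.43 and 0.54 did. For Gstm1, those at 0.33 and 0.28 did not pass, while that at 0.35 did. At 0.3 ppm Slc7a11 lay below the filter on low values on all 5 arrays and Il1f9 on 3 of 5, so the signal limits how well these differences are known. No paired analysis was possible because the groups share no animal numbers.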

Other observations

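After 5 days 17 genes were higher at 13 than at 0.3 ppm that did not pass after 15 days; those given here were chosen after their values were seen. Some belong to the making of multiciliated cells: Deup1, which builds centrioles in these cells, differed by 0.13 ± 0.13 after 15 days and 0.77 ± 0.13 after 5 days, and Ccno, a cyclin-like gene they need, by 0.21 ± 0.14 after 15 days and 0.76 ± 0.14 after 5 days. The cell cycle kinase Cdk1 differed by 0.13 ± 0.16 after 15 days and 0.81 ± 0.16 after 5 days, and the largest of the 17, the acyl-CoA synthetase Acsm1, by 0.53 ± 0.15 after 15 days and 1.03 ± 0.15 after 5 days. The difference between the times did not pass for any of the 17 (adjusted p = 1.00 for each), so none is shown to differ between 15 and 5 days.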
